A study of Mus musculus with 9 samples.

Results

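The sodium-potassium pump is built from a catalytic alpha subunit and a beta subunit, and the mRNAs of its beta subunits Atp1b1, Atp1b2 and Atp1b3 were examined here in ribosome-bound RNA of mouse astrocytes. They were taken by gene symbol, with no threshold on their values, and are 3 of the 22092 genes that could be read from the count tables. All 3 passed the filter on low counts. Each gene was represented by the annotated transcript with the most counts over all libraries, so that a level is that of 1 transcript model.

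Both groups of libraries came from brains of mice aged 2 months that carried the transgene tg:Aldh1L1-L10aGFP in the line Aldh1L1 JD130. In these animals a GFP-tagged ribosomal protein is made under control of the Aldh1l1 gene, which is active mainly in astrocytes, and tagged ribosomes were pulled down with antibodies to GFP (translating ribosome affinity purification, TRAP). The 3 whole astrocyte libraries were each made from 1 brain, from which the choroid plexus had been removed. The 6 endfeet libraries were made from purified brain vessels, which keep the astrocyte endfeet attached to their surface, with vessels of 8 mice pooled for each library. No library of unbound RNA, and none of mice without the transgene, was analysed here. The comparison asks which mRNAs differ in level between TRAP of the vessel preparation with its endfeet and TRAP of the whole brain. Markers of other cells were far higher in endfeet TRAP, as given below. A difference between the groups therefore cannot be assigned to astrocytes alone.

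The pump moves sodium out of the cell and potassium into it at the cost of ATP. Its alpha subunit binds ATP and the ions, while the glycosylated beta subunit is needed for the folding of alpha and for its delivery to the plasma membrane, and the choice of beta changes the affinity of the pump for ions. In the brain, the sodium gradient that the pump keeps up drives the uptake of glutamate by astrocytes, and the pump itself takes part in clearing the potassium that neurons release. Atp1b2 is also known as the adhesion molecule on glia, a surface protein of astrocytes that binds to neurons. Atp1b1 is the widespread beta subunit of epithelia and neurons, and Atp1b3 is found in many tissues.

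The stretch in which the 3 coding sequences were most alike shows how far the mRNAs can be told apart by short reads. It is a window of 90 bases without gaps, given 5′ to 3′ on the coding strand from the GENCODE M21 annotation of mouse build GRCm38 (mm10), with the 49 bases that are identical in all 3 genes in capitals. It lies across the junction of exons 1 and 2 in each gene.
Atp1b1: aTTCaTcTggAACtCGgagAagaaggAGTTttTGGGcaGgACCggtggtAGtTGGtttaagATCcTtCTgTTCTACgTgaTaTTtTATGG
Atp1b2: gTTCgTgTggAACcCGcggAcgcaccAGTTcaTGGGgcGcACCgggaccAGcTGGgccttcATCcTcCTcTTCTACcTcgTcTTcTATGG
Atp1b3: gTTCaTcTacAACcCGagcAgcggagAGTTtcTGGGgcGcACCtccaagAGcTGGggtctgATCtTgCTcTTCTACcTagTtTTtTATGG

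These bases are coding positions 42 to 131 of Atp1b1, 57 to 146 of Atp1b2 and 54 to 143 of Atp1b3, and the capitals are broken up along the whole window. Over the aligned coding sequence, Atp1b1 and Atp1b2 were identical at 56.9% of 837 bases, Atp1b2 and Atp1b3 at 55.4% of 810, and Atp1b1 and Atp1b3 at 49.8% of 793. The longest run shared by a pair was 19 bases, between Atp1b1 and Atp1b2, and no pair shared a single run of 50 bases, which is the length of the reads. Reads from the coding part of one member therefore could not be assigned to another without mismatches.

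In GRCm38 the Atp1b1 transcript (ENSMUST00000027863) runs over chr1:164437109-164458355 on the minus strand, with 6 exons, 2580 exonic bases and a coding sequence of 912 bases. Transcripts of Nme7 on the opposite strand overlap its exons by up to 522 bases, and these were not analysed here. The Atp1b3 transcript (ENSMUST00000034983) runs over chr9:96332655-96364442 on the minus strand, with 7 exons, 1994 exonic bases and 834 coding bases. For Atp1b2 the most counted model was a non-coding transcript of 3751 bases (ENSMUST00000130394, chr11:69599741-69605942, minus strand). Its coding transcript (ENSMUST00000047889, 7 exons, 2842 bases, 870 of them coding) had 99.9% or more of the same counts, after rounding, in every library, so the choice between them left the counts of Atp1b2 as they were and altered only its level per kilobase.

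Counts assigned to genes summed to between 35984144 and 43521208 in the whole astrocyte libraries and between 2319495 and 13450588 in the endfeet libraries, the lowest being endfeet library 6. Markers of other cells of the vessel wall were far higher in endfeet TRAP: the summed level of 8 endothelial genes was 3903 to 5310 CPM (counts scaled to a common library total) against 44.4 to 55.5, that of 8 mural cell genes 3528 to 8036 against 33.6 to 36.4, and that of 6 fibroblast genes 770 to 1494 against 28.7 to 40.6, with every gene of these lists higher by the test described below. Of 10 astrocyte markers, 1 was higher, 5 were lower and 4 did not pass, and their sum was 10692 to 31580 CPM in endfeet against 35801 to 39926. The summed level of 6 microglia and macrophage genes was 143 to 225 CPM in endfeet against 10.6 to 12.3, with 4 of them higher. That of 6 ependymal genes was 27.0 to 196 CPM against 17.1 to 21.5, also with 4 higher. No gene of the marker lists was at 0 throughout a group. The numbers of the deposited libraries form 2 series, one with endfeet libraries 1 to 3 and the other with endfeet libraries 4 to 6 and all whole astrocyte libraries, and what the series stand for is not given in the sources used here. Whether a difference came from fewer cells of a type or from less RNA per cell cannot be told apart in these pooled samples.

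Levels are given in CPM after scaling of the libraries by the trimmed mean of M values (TMM). Differences were tested with edgeR's quasi-likelihood test over 14427 genes, with p-values adjusted by Benjamini-Hochberg and called at 0.05 or below, and their errors are standard errors (SE) on the log2 scale. By this test 4997 genes (34.6%) differed between the groups, of which 2991 (20.7%) were higher and 2006 (13.9%) lower in endfeet TRAP, and the median log2 fold change of all genes tested was 0.10. Among the 3 beta subunits, 1 differed, Atp1b3, which was higher in endfeet. In 2724 genes (18.9%) every endfeet library lay above every whole astrocyte library, and Atp1b1 and Atp1b3 were among them, while Atp1b2 overlapped.

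Atp1b3 was the beta subunit with the large difference. Its level was 70.6, 80.7 and 85.0 CPM in whole astrocyte libraries 1 to 3, and 840, 427, 496, 458, 712 and 854 CPM in endfeet libraries 1 to 6. All 6 endfeet libraries lay above all whole astrocyte libraries, and the lowest of them was endfeet library 2. The means were 631 ± 195 CPM (SD, n = 6) in endfeet and 78.8 ± 7.39 CPM (SD, n = 3) in whole astrocytes. The edgeR estimate was 3.002 on the log2 scale (SE 0.332, adjusted p = 2.06e-05), or 8.01-fold higher in endfeet, with an interval of 2 SE on either side from 2.34 to 3.66. Between 1869 and 9660 counts stood behind each endfeet value and between 2612 and 3873 behind each whole astrocyte value, so counting error was small beside the spread between libraries.

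**Figure D1:**
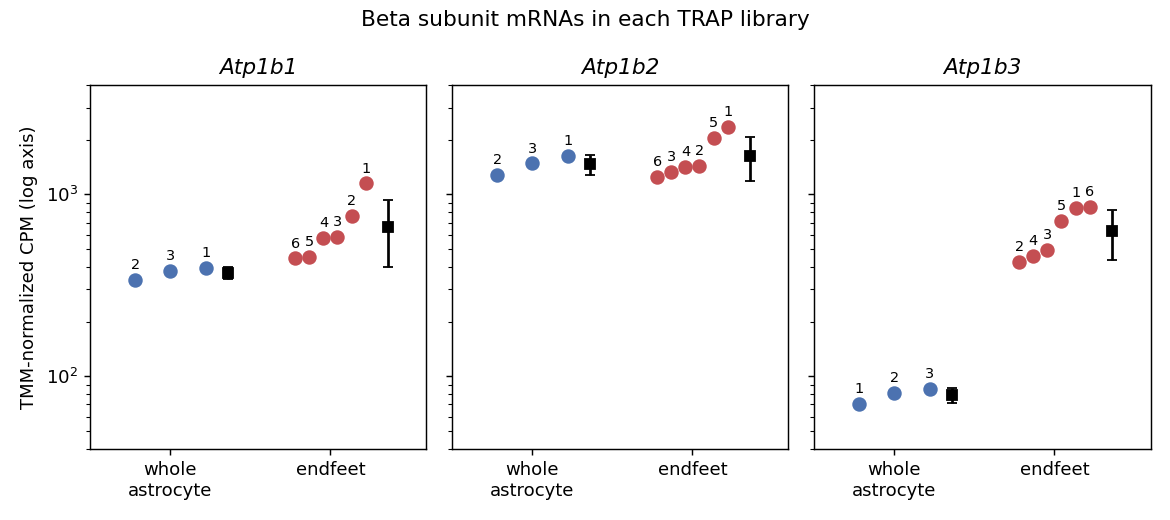
TMM-normalized CPM (log axis) of Atp1b1, Atp1b2 and Atp1b3 in 3 whole astrocyte (blue) and 6 endfeet (red) TRAP libraries, each point numbered by its library and set in order of level. Black squares and bars are the mean and SD. The Atp1b3 groups lie far apart (70.6 to 85.0 against 427 to 854 CPM), those of Atp1b1 lie close without overlap (339 to 395 against 444 to 1149 CPM), and those of Atp1b2 overlap.

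Atp1b1 had an intermediate pattern. Its level was 395, 339 and 381 CPM in whole astrocyte libraries 1 to 3, and 1149, 765, 583, 575, 454 and 444 CPM in endfeet libraries 1 to 6. Although all endfeet libraries lay above all whole astrocyte libraries, endfeet libraries 5 and 6 came close to whole astrocyte library 1, and the endfeet libraries spread over a wide range. The means were 662 ± 265 CPM (SD, n = 6) and 372 ± 29.0 CPM (SD, n = 3). The edgeR estimate of 0.83 (SE 0.320, 1.78-fold) did not pass the threshold (adjusted p = 0.0597), and its interval of 2 SE ran from 0.19 to 1.47.

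The estimate for Atp1b1 depended on which series of library numbers was used. Endfeet libraries 3 and 4, of different series, were nonetheless alike at 583 and 575 CPM. With endfeet libraries 4 to 6 alone, which share a series with the whole astrocyte libraries, edgeR gave 0.28 (SE 0.189, adjusted p = 0.282). With endfeet libraries 1 to 3 alone it gave 1.12 (SE 0.258, adjusted p = 0.0127), a comparison in which series and group cannot be told apart. With the series as a covariate over all 9 libraries the estimate was 0.40 (SE 0.287, edgeR adjusted p = 0.311). This fit also rests on endfeet libraries 4 to 6 for the difference, because all whole astrocyte libraries are in 1 series. Atp1b3 kept its call in all 3 of these fits. The choroid plexus markers described below divide the endfeet libraries in the same way. Their sum was 26449 to 90851 CPM in libraries 1 to 3 and 6830 to 18721 CPM in libraries 4 to 6.

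Atp1b2, the glial adhesion molecule, had the highest counts of the family and no detectable difference. Its level was 1631, 1277 and 1480 CPM in whole astrocyte libraries 1 to 3, and 2343, 1428, 1323, 1413, 2034 and 1243 CPM in endfeet libraries 1 to 6. Of the endfeet libraries, 2 lay above all whole astrocyte libraries, 1 lay below them and 3 lay among them. The means were 1631 ± 448 CPM (SD, n = 6) in endfeet and 1463 ± 178 CPM (SD, n = 3) in whole astrocytes. The edgeR estimate was 0.16 (SE 0.264, adjusted p = 0.678), and its interval of 2 SE ran from -0.37 to 0.68, which leaves room for a modest difference in either direction. Its sign turned when endfeet library 5 was left out (-0.03) and with endfeet libraries 4 to 6 alone (-0.04).

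**Figure D2:**
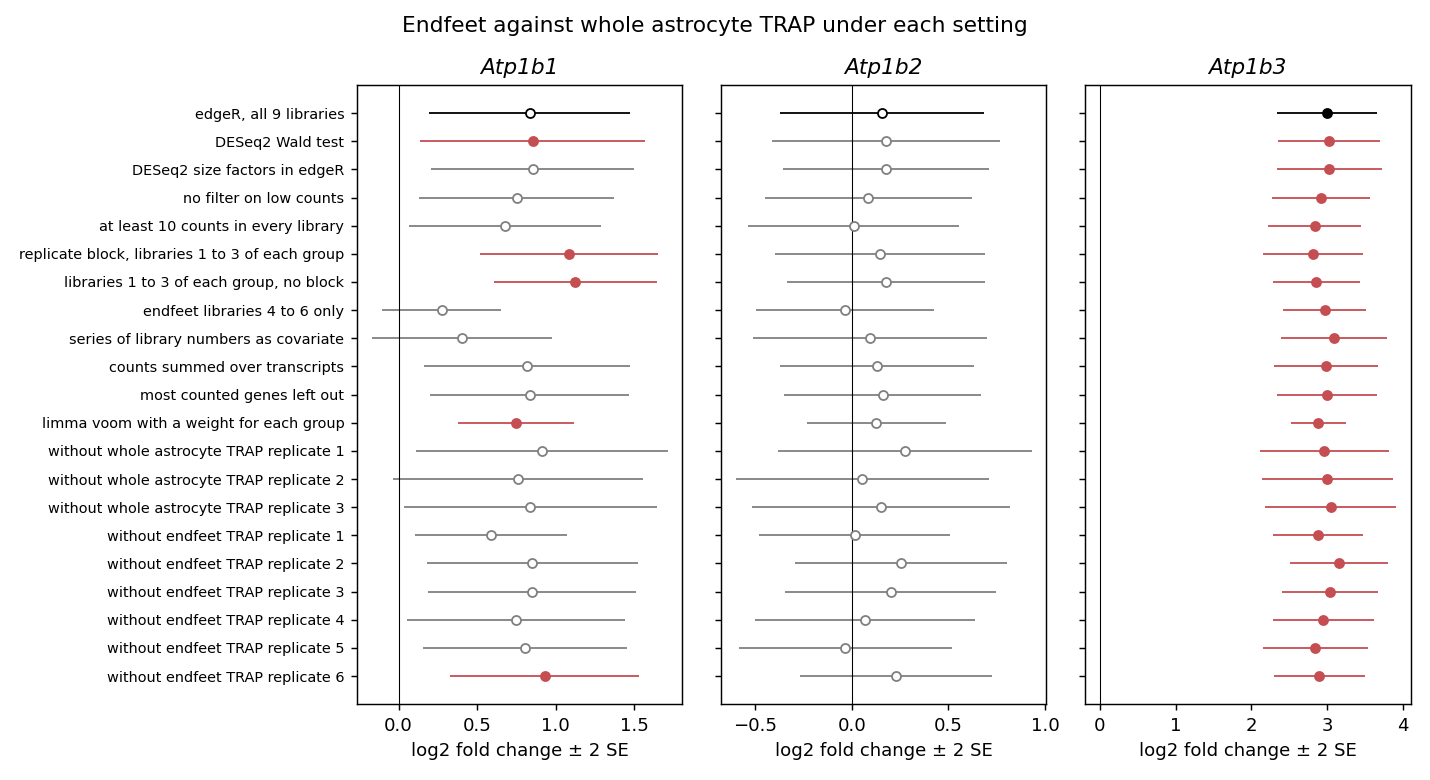
Log2 fold change of endfeet over whole astrocyte TRAP with 2 SE on either side, for each beta subunit in the fit of all 9 libraries (black, top) and in each alternative fit. Filled points passed the threshold and open points did not. Atp1b3 stays between 2.81 and 3.16 and passes in every fit shown, Atp1b1 ranges from 0.28 to 1.12 and passes in some, and Atp1b2 stays close to 0 without passing.

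To compare the genes with one another, CPM were divided by the exonic length of the transcript in kilobases. In whole astrocytes the order was Atp1b2 at 390 ± 47.4 CPM per kilobase, Atp1b1 at 144 ± 11.2 and Atp1b3 at 39.5 ± 3.70 (SD, n = 3), and no neighbours in that order overlapped. In endfeet Atp1b2 was at 435 ± 119, Atp1b3 at 316 ± 97.6 and Atp1b1 at 257 ± 103 CPM per kilobase (SD, n = 6), and the ranges of neighbours overlapped. Atp1b3 lay above Atp1b1 in endfeet libraries 3 to 6 and below it in libraries 1 and 2. Atp1b2 was the highest in endfeet libraries 1 to 5, and Atp1b3 in library 6. When the coding transcript set the length of Atp1b2, its level was 515 ± 62.6 in whole astrocytes and 574 ± 158 in endfeet, and it was the highest in all 6.

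As shares of the summed beta level, Atp1b2 made up 67.9% ± 1.70 in whole astrocytes (SD, n = 3) and 43.1% ± 4.85 in endfeet (SD, n = 6). Atp1b3 made up 6.96% ± 1.15 and 31.5% ± 7.68, and Atp1b1 25.2% ± 0.557 and 25.4% ± 6.59. The share of Atp1b2 was lower, and that of Atp1b3 higher, in every endfeet library than in any whole astrocyte library, whereas the endfeet shares of Atp1b1, from 16.4% to 33.3%, lay on both sides of the whole astrocyte ones. With the coding length the shares of Atp1b2 were 73.6% ± 1.51 and 49.9% ± 4.95, and those of Atp1b3 5.72% ± 0.966 and 27.8% ± 7.06. The summed beta level itself was 573 ± 56.4 CPM per kilobase in whole astrocytes and 1008 ± 254 in endfeet.

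**Figure D3:**
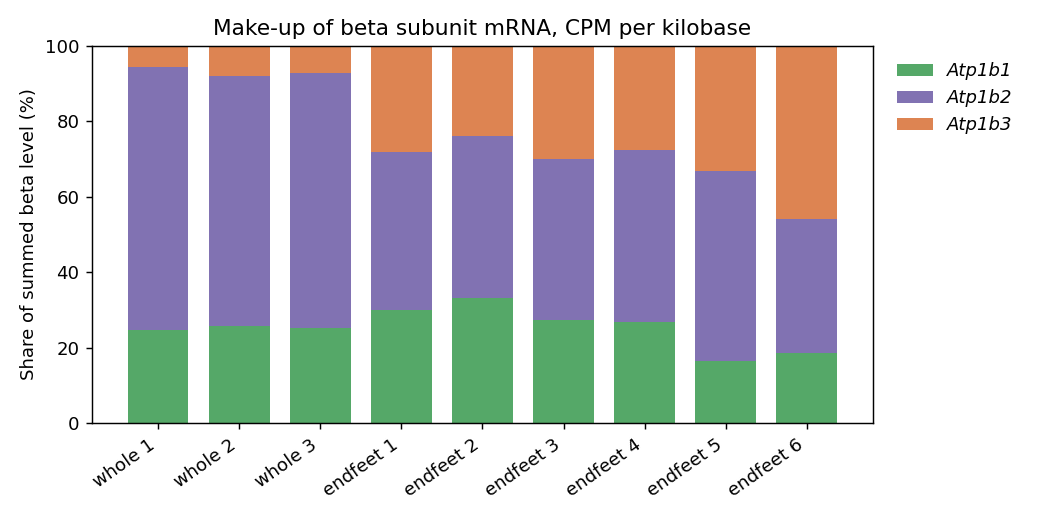
Share of each beta subunit in the summed level per kilobase (percent) in every TRAP library, with the most counted transcript setting the length. Atp1b3 (orange) takes 5.68% to 7.90% in the whole astrocyte libraries and 24.0% to 45.9% in the endfeet libraries, and the share of Atp1b2 (purple) is smaller in all 6 endfeet libraries.

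Ratios within a library do not depend on how libraries are scaled, and 6 of them were tested with a two-sided exact permutation test over the 84 ways to divide the libraries, in which the smallest possible p is 0.0119. The ratio of Atp1b3 to Atp1b2 per kilobase was 0.0815, 0.119 and 0.108 in whole astrocyte libraries 1 to 3, and 0.674, 0.562, 0.706, 0.610, 0.659 and 1.29 in endfeet libraries 1 to 6. The ratio was thus higher in all endfeet libraries, by 2.82 on the log2 scale or 7.08-fold (exact permutation p = 0.0119, adjusted over the 6 ratios 0.0143), and endfeet library 6 stood above the other 5. The length taken for Atp1b2 shifts all libraries alike and leaves this difference as it is.

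The ratio of Atp1b3 to Atp1b1 was 0.232, 0.308 and 0.289 in whole astrocyte libraries 1 to 3, and 0.945, 0.722, 1.10, 1.03, 2.03 and 2.49 in endfeet libraries 1 to 6. It was higher in all 6 endfeet libraries, by 2.19 on the log2 scale or 4.57-fold (exact permutation p = 0.0119, adjusted 0.0143). The ratio of Atp1b2 to Atp1b1 was 2.84, 2.59 and 2.67 in whole astrocytes, and 1.40, 1.28, 1.56, 1.69, 3.08 and 1.92 in endfeet libraries 1 to 6. It was lower in 5 of 6 endfeet libraries and higher in endfeet library 5, and its difference of -0.63 on the log2 scale did not pass (exact permutation p = 0.0833, adjusted 0.0833). With endfeet library 5 left out it was -0.79 (exact permutation, adjusted p = 0.0179).

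Set against the mean log2 level of the 10 astrocyte markers in the same library, all 3 beta subunits were higher in endfeet. The differences were 2.12 for Atp1b1, 1.49 for Atp1b2 and 4.32 for Atp1b3 on the log2 scale, each with all 6 endfeet libraries above all whole astrocyte libraries (exact permutation p = 0.0119, adjusted 0.0143). The marker list itself was not of one kind: the enzyme Aldoc was at -4.00 (SE 0.353, adjusted p = 3.10e-06) and the water channel Aqp4 of endfeet at 1.67 (SE 0.406, adjusted p = 0.00635) in the same edgeR fit. A ratio to the list is therefore a ratio to a mixture of markers that differed among themselves. The median log2 fold change of the list was -0.98, against 0.10 over all genes tested. A gene without a difference between the groups thus also tends to stand higher against the list. Atp1b2, at 0.16 by edgeR, did so by 1.49. How many other genes did so was not computed, so these 3 tests do not set the beta subunits apart from other genes.

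Among detected genes ranked by level per kilobase, of which each library had between 12725 and 16448, Atp1b3 held positions 1737 to 2097 in the whole astrocyte libraries and 51 to 109 in the endfeet libraries. Atp1b2 held positions 60 to 102 and 33 to 82. Positions of Atp1b1 were 345 to 439 and 54 to 186. All 3 beta subunit mRNAs thus held position 186 or better in every endfeet library, and of these only Atp1b2 did so in the whole astrocyte libraries.

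The levels of the beta subunits were also set beside markers of other cells in each endfeet library. The summed level of 8 choroid plexus epithelium markers was 90851, 40341, 26449, 14138, 6830 and 18721 CPM in endfeet libraries 1 to 6, against 74.6 to 1541 CPM in the whole astrocyte libraries, and 7 of the 8 genes were higher in endfeet by edgeR. Atp1b1 was highest in the same 3 libraries as these markers, in the same order, namely endfeet libraries 1, 2 and 3, while the other 3 differed in order. Choroid plexus epithelium is known for a high level of the pump with Atp1b1. With endfeet libraries 4 to 6, where the choroid plexus sum was 6830 to 18721 CPM, the Atp1b1 difference was 0.28, as given above. The summed level of 6 neuron markers was lower in endfeet, at 891 to 1847 CPM against 3252 to 3796 in the whole astrocyte libraries. Of these 6 genes, 2 were lower by edgeR and 4 did not pass. For 6 oligodendrocyte markers the sum was 206 to 545 CPM against 578 to 592, with 1 lower and 5 not passing. The part of choroid plexus epithelium, neurons and oligodendrocytes in the Atp1b1 values was not tested.

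Atp1b3 was at 840 CPM in endfeet library 1, where the choroid plexus sum was highest, and at 854 and 712 CPM in libraries 6 and 5, where that sum was 18721 and 6830 CPM. The endothelial sum was 3903, 4694, 5310, 4967, 4872 and 4249 CPM in endfeet libraries 1 to 6, and the 2 libraries with the most Atp1b3 were those with the lowest endothelial sums. These sums spanned a narrow range beside the gap to the whole astrocyte libraries (44.4 to 55.5 CPM). Their order within endfeet therefore does not bear on the difference between the groups. The mural sum was lowest in endfeet library 1 and highest in library 4, and the fibroblast sum was highest in libraries 1 and 5. Every gene of the endothelial, mural and fibroblast lists was higher in endfeet, as was Atp1b3. The part of these cells, and of choroid plexus epithelium, microglia, macrophages and ependymal cells, in the Atp1b3 difference between the groups was not tested.

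**Figure D4:**
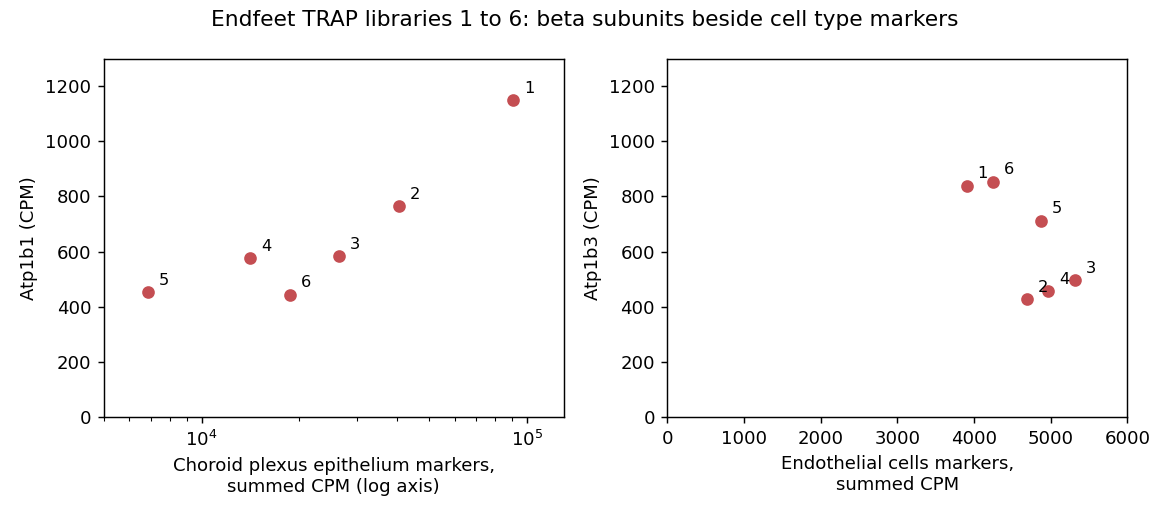
Left, Atp1b1 (CPM) against the summed CPM of 8 choroid plexus epithelium markers (log axis); right, Atp1b3 (CPM) against the summed CPM of 8 endothelial markers. Points are endfeet TRAP libraries, numbered. Library 1 has the highest Atp1b1 (1149 CPM) and the highest choroid plexus sum (90851 CPM). The highest Atp1b3 values (840 and 854 CPM) stand at the lowest endothelial sums (3903 and 4249 CPM). The endothelial sum was 44.4 to 55.5 CPM in the whole astrocyte libraries, which are not drawn. The order of the endfeet libraries does not bear on the difference between the groups. The part of either cell type in these values was not tested.

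Of the other subunits of the pump and of the related proton-potassium pumps, 5 are given here, and these had almost no counts and were below the filter. Atp1b4, a relative of the beta subunits that is found in muscle nuclei, had 0 counts in all 9 libraries, as had the gastric and colonic pump genes Atp4b and Atp12a. For a count of 0, the limit is 3 counts, which is 0.0658 to 0.0811 CPM in the whole astrocyte libraries and 0.197 to 1.37 CPM in the endfeet libraries. Such limits cover counting error only. Atp1a4, the alpha subunit of sperm, had 1 count in a single whole astrocyte library, and Atp4a had at most 29 counts in a library.

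**Figure D5:**
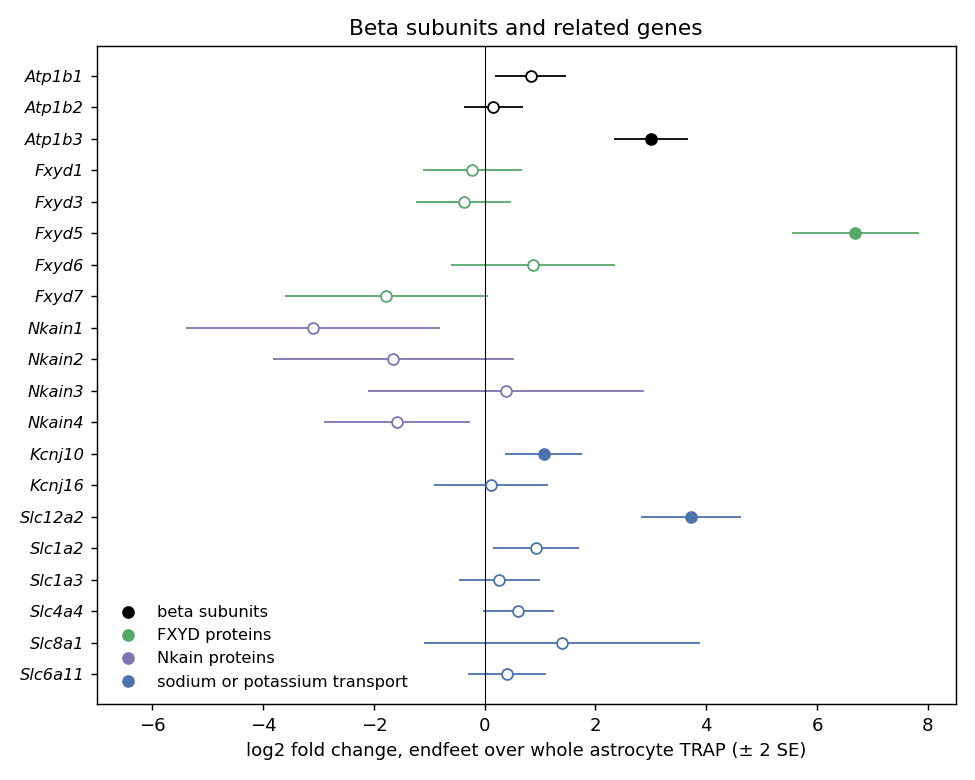
Log2 fold change of endfeet over whole astrocyte TRAP (edgeR, 2 SE on either side) for the beta subunits and for related genes, coloured by list. Filled points passed the threshold of 0.05 after adjustment and open points did not; Atp1b3, Fxyd5, Kcnj10 and Slc12a2 passed.

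FXYD proteins are small membrane proteins that bind the pump and tune its affinity for ions. Of 7 such genes 5 were tested, 1 was higher in endfeet and none was lower, beside 34.6% of all genes called, and their median log2 fold change was -0.22 against 0.10 over all genes. The gene that differed was Fxyd5 (dysadherin), which was at 0.514, 1.22 and 0.988 CPM in whole astrocytes and at 73.5, 102, 139, 53.0, 74.9 and 122 CPM in endfeet libraries 1 to 6. Its groups were far apart, with a difference of 6.69 (SE 0.573, edgeR adjusted p = 2.44e-06). Only 19 to 46 counts stood behind its whole astrocyte values. The part of other cells of the vessel preparation in the Fxyd5 difference was not tested.

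Fxyd1 (phospholemman), which acts on the pump in heart and glia, was at 41.2 to 47.1 CPM in whole astrocytes and 15.5 to 73.7 CPM in endfeet (-0.22, SE 0.447, edgeR adjusted p = 0.732). Fxyd6 and Fxyd7, both known from brain, were at 0.87 (SE 0.740, adjusted p = 0.386) and -1.77 (SE 0.914, adjusted p = 0.151) by edgeR. Fxyd7 passed in 2 of 19 alternative fits, those with DESeq2 and limma voom (lowest adjusted p = 0.0227), and the sign of Fxyd1 turned in 2 of 20. The call of Fxyd6 turned with 1 library: it was 2.28 CPM in endfeet library 6 and 56.2 to 150 CPM in the others, and it passed without that library (adjusted p = 0.0228). Fxyd3 was at -0.38 (SE 0.429, adjusted p = 0.524 by edgeR), and its transcript overlaps exons of Lgi4 by 1882 of its 2894 bases. Fxyd2 and Fxyd4 were below the filter on low counts.

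Nkain proteins are membrane proteins that interact with beta subunits of the pump. All 4 were tested and none passed, beside 34.6% of all genes called, and their median log2 fold change was -1.62 against 0.10 over all genes. The gene with the most counts, Nkain4, was at 61.0, 59.1 and 74.8 CPM in whole astrocytes and at 4.50, 8.96, 39.0, 41.6, 29.3 and 5.02 CPM in endfeet libraries 1 to 6. Every endfeet library lay below every whole astrocyte library, as in 23.8% of all genes tested, but they were spread so widely that the difference of -1.59 (SE 0.661) had an edgeR adjusted p of 0.0795. It passed in 4 of 20 alternative fits. Nkain1 was at -3.10 (SE 1.14, adjusted p = 0.0511 by edgeR) with 0 to 12 counts in the endfeet libraries, and it passed in 5 of 19 alternative fits. The Nkain1 transcript used is annotated as a target of nonsense-mediated decay, not as protein-coding. Nkain2, at -1.65 (SE 1.09, adjusted p = 0.261 by edgeR), passed in 1 of 19, with limma voom, and Nkain3, at 0.38 (SE 1.25, adjusted p = 0.840 by edgeR), changed sign in 4 of 19.

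The last list held 8 channels and transporters that run on, or in step with, the sodium and potassium gradients, and 2 were higher in endfeet, beside 20.7% of all genes tested, with a median log2 fold change of 0.77 against 0.10 over all genes. Slc12a2, the sodium-potassium-chloride cotransporter, was at 19.4, 20.2 and 21.6 CPM in whole astrocytes and at 449, 434, 157, 179, 188 and 209 CPM in endfeet libraries 1 to 6 (3.72, SE 0.453, edgeR adjusted p = 4.28e-05). Endfeet libraries 1 and 2 also had the highest choroid plexus sums (90851 and 40341 CPM), while the other endfeet libraries differed in order. The part of other cells in the Slc12a2 difference was not tested. Kcnj10, the inward rectifier potassium channel of astrocytes, was at 441, 413 and 497 CPM and at 1136, 585, 786, 1260, 1397 and 491 CPM (1.07, SE 0.349, edgeR adjusted p = 0.0311). The call of Slc12a2 held in all 20 alternative fits. That of Kcnj10 was lost in 8 of 20, among them each fit that left out 1 whole astrocyte library, with adjusted p up to 0.126.

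The other 6 transport genes did not pass. The glutamate transporter Slc1a2, which is driven by the sodium gradient, was at 0.93 (SE 0.387, edgeR adjusted p = 0.0800) and passed in 5 of 19 alternative fits. Among these were the fit with endfeet libraries 4 to 6 alone and that with the series as a covariate. The related transporter Slc1a3 was at 0.27 (SE 0.366, adjusted p = 0.607 by edgeR), and turned in sign in 2 of 20. The bicarbonate cotransporter Slc4a4 was at 0.61 (SE 0.317, adjusted p = 0.155 by edgeR) and passed in 1 of 20, with limma voom. The potassium channel subunit Kcnj16 was at 0.11 and changed sign in 8 of 20 alternative fits (-0.34 to 0.31). The sodium-calcium exchanger Slc8a1 was at 1.39 with an SE of 1.25, and ranged from 0.11 to 2.02 over 19 alternative fits. The GABA transporter Slc6a11 was at 0.40 and ranged from -0.0034 to 0.68 over 20.

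For each beta subunit, the genes with the most similar profile were taken by the root mean square difference of their log2 levels over the 9 libraries, each profile being centred on its mean, among 10200 genes with at least 10 CPM on average. The nearest to Atp1b2 were Ctso (0.128), Cblb (0.154) and Igsf11 (0.159). Those nearest to Atp1b3 were P4hb (0.244), Tram1 (0.254) and Prkd2 (0.261). P4hb, a chaperone of the endoplasmic reticulum, was at 39.2 CPM on average in whole astrocytes and 288 CPM in endfeet. Tram1, a component of the machinery that passes proteins into that organelle, was at 33.2 and 213 CPM, and Prkd2 was at 3.20 and 35.3 CPM. Such genes resemble Atp1b3 in the difference between the groups because they were chosen by their profiles. For Atp1b1 the nearest were Nbea (0.187), Mllt10 (0.187) and Adgrl1 (0.188), whose differences between the groups, 0.50 to 0.62 on the log2 scale, were smaller than its own 0.75 on the same scale.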

How the data were processed

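Ribosome-bound RNA of 9 TRAP libraries was amplified with the Ovation RNA-Seq system (NuGEN) and sequenced as reads of 50 bases. Per the paper's methods and the submitters' processing notes, the authors aligned reads to mm10 with Bowtie, removed reads with several alignments, and counted them per Ensembl transcript with HTSeq 0.5.3. The deposited values are raw counts per transcript, not pooled and not normalized. A strand setting is not given in the sources used here.

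Of 75466 transcripts, 73164 matched GENCODE M21 and gave 22092 genes, and the 2302 others were left out. A gene was its transcript with the highest summed CPM. Library totals were taken over these genes. Low counts were filtered with filterByExpr, libraries were scaled by TMM, and groups were compared with edgeR 4.0.16 (quasi-likelihood test, no covariate, R 4.3.3) with adjustment over all genes tested. SE were taken from the log2 fold change and its F statistic. The study's own test, DESeq2 (1.42.0 here), and limma voom (3.58.1) were alternatives, as were other scaling, filters, libraries left out, the series of library numbers, a replicate block and counts summed over transcripts. Ratios used log2 of CPM plus 0.1. Profiles used log2 of CPM plus 1. Coding sequences were aligned with MAFFT 7.526. The edgeR script was tested on simulated counts with the same dispersion in both groups, which does not cover the unequal dispersions given below.

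The genes named are the 3 members, the genes of the lists on the pump, markers where a list is discussed, and the 3 nearest profiles of each member. Some listed genes are not reported here. Members and lists were chosen with earlier results of these data known. Groups came from the sample labels. The labels do not tie libraries to animals, so the p-values measure the spread between these libraries, which may in part be technical. The common dispersion of counts differed between the groups, at 0.0142 in whole astrocyte and 0.725 in endfeet TRAP. Gene totals differed by up to 18.8-fold.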

Additional observations from a re-analysis of the deposited data

Results flagged for a closer look

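In groups of 4 to 10 samples, 26 values were checked for a library that stands apart from its group by Dixon's test, which chance alone does in about 1 in 20 groups, and 2 were found. The log2 ratio of Atp1b3 to Atp1b2 was 0.369262 in endfeet library 6, where Atp1b3 exceeded Atp1b2 per kilobase, against -0.83 to -0.50 in the other 5 endfeet libraries. With the coding length of Atp1b2, Atp1b3 was the lower of the pair in endfeet library 6 (428 against 438 CPM per kilobase). Endfeet library 6 had the fewest counts of all libraries. The level of Slc8a1, a sodium-calcium exchanger, was 49.8699 CPM in endfeet library 2, against 0 to 13.7 CPM in the other 5.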

How the results depend on the processing

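Atp1b3 kept its direction and its call in all 20 alternative fits, with log2 fold changes of 2.85 to 3.16 when 1 library was left out. Atp1b1 kept its direction in all 20 and passed in 5: with DESeq2 (0.85, adjusted p = 0.0444), with limma voom (0.74, adjusted p = 0.00221), with libraries 1 to 3 of each group without a block (1.12, chosen after seeing the data), with the replicate block on those libraries (1.08, adjusted p = 0.0252), and without endfeet library 6 (adjusted p = 0.0296). With 1 library left out it ranged from 0.59 to 0.93. Atp1b2 passed in none and turned in 2, at -0.036 (adjusted p = 0.919) with endfeet libraries 4 to 6 alone and at -0.034 (adjusted p = 0.936 by edgeR) without endfeet library 5, within a range of -0.034 to 0.28 with 1 library left out. With the coding length, chosen after seeing the data, its endfeet level per kilobase was 574.

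The replicate numbers showed no pairing of the libraries: deviations of same-numbered libraries correlated at -0.034, 0.0085 and 0.071. The replicate block on libraries 1 to 3 gave 4305 genes past the threshold against 5624 without it. A block in so few libraries can lower the count with or without pairing, so these counts do not bear on it. Over all 9 libraries the count was 4997, with 8413 by limma voom (3928 higher and 4485 lower, against 2991 and 2006), and 3071 to 6022 with 1 library left out, the lowest 3 counts (3071, 3130 and 3160) being those without a whole astrocyte library. The cause was not tested.

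With endfeet libraries 4 to 6 alone, a permutation test of the ratios cannot go below 0.1, so none could pass. The differences were then 2.66 for Atp1b3 over Atp1b1, 2.98 for Atp1b3 over Atp1b2, and 1.62, 1.30 and 4.28 for Atp1b1, Atp1b2 and Atp1b3 over the astrocyte markers (adjusted p = 0.12 for these 5, exact permutation). Atp1b2 over Atp1b1 was then -0.32 (adjusted p = 0.40, exact permutation), against -0.63 over all 9 libraries, and ranged from -0.79 (passing without endfeet library 5) to -0.54 with 1 library left out. All other alternatives of the ratios kept their call. Other scaling by DESeq2 size factors moved the median of all genes by under 0.1.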
